A study of Mus musculus with 5 samples.

Results

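The genes described here encode the machinery that docks, primes, fuses and recycles synaptic vesicles: the SNARE proteins and the factors that take them apart, complexins, vesicle membrane proteins, Rab3 GTPases, active zone scaffolds and endocytic proteins. The list of 38 genes was set by name, and each gene was read on its brightest probe, the one with the highest mean over all mice. Values could be given for 25 of the 38, out of 17778 genes named on the array. The other 13 (Syt1, Syt2, Syt4, Syt5, Syt7, Syn1, Syn2, Syn3, Syp, Syngr1, Syngr3, Synpr and Synj1) were not analysed here. All 13 symbols hold the letter Y, and the table that pairs probes with genes named 0 of 827 RefSeq protein-coding genes with a Y in their symbol, against 70.9% of the 21073 without. All 25 members without a Y were named. The gap therefore follows the spelling of the symbols in that table and says nothing about whether these genes have probes or are expressed. It removes every synaptotagmin, the calcium sensors of release, and every synapsin, so calcium sensors could not be compared with the other roles.

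Striatal RNA came from 5 male FVB mice aged 12 months, all of which carried a Huntington's disease (HD) transgene that joins GFP to the first exon of human HTT, with a tract of 84 CAG repeats, behind a human ubiquitin promoter. In 3 of them, the HD_miR196a group, crossing with a second line added the precursor of miR-196a under a human ubiquitin promoter, and 2 carried only the HD transgene, the HD group. The labels describe motor function as improved in the HD_miR196a mice and weak in the HD mice. The transgene promoter is active in most tissues, so neither transgene is restricted to neurons, and transgene-free animals were not analysed here. The deposited column of each mouse combines 2 technical repeats, so the mouse is the replicate.

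A synaptic vesicle fuses when a vesicle SNARE (Vamp) zips together with plasma membrane SNAREs (syntaxin and Snap25), with complexin holding the assembled complex until calcium arrives. Active zone proteins position vesicles and calcium channels at the release site, and after fusion Nsf with its adaptors pulls the SNAREs apart while endocytic proteins retrieve the membrane. In striatum these transcripts come largely from local neurons, most of them GABAergic. The release sites of cortical and thalamic axons are also there, but the cell bodies that make most of their RNA lie outside the region.

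The microRNA that separates the groups, and the upstream sequences of the 3 members on which the values below turn, are shown first. Stx1a had the smallest p of the members, and Sv2b and Cplx3 varied most between mice. Sequences are from RefSeq tables of GRCm38.p6 and run 5′ to 3′. Mature miR-196a-5p, 22 bases, is encoded at chr11:96265187-96265208 and chr15:102973365-102973386, both on the plus strand, and its seed (bases 2 to 8) is in capitals.
mmu-miR-196a-5p: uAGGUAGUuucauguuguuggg
The next sequences are the 250 bases before the annotated start of each gene. Capitals mark GGGCGG (the GC box), TGACG (the core of the CREB site) and TATAAA, each searched on both strands. The windows are chr5:135023232-135023481 (plus strand) for Stx1a, chr7:75309263-75309512 (minus strand) for Sv2b, the most upstream of its 4 annotated starts, and chr9:57606282-57606531 (minus strand) for Cplx3.
Stx1a: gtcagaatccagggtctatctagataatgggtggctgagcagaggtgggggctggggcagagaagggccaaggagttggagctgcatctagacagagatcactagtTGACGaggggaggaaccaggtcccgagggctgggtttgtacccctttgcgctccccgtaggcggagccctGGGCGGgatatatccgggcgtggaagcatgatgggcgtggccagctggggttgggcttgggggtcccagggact
Sv2b: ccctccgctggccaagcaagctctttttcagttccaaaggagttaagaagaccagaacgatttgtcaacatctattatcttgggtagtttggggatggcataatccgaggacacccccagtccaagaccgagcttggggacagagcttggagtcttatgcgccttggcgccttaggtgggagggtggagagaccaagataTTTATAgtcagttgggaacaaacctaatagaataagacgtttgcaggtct
Cplx3: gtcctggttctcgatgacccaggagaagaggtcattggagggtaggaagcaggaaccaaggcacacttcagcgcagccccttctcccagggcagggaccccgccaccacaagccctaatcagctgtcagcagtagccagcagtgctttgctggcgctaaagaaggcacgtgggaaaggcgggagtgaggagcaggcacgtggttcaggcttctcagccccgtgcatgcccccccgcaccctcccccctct

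The window of Stx1a held a TGACG and a GGGCGG, that of Sv2b a TATAAA on the strand opposite the gene, and that of Cplx3 none of the 3. An upstream window was found for 22 of the 25 members. GGGCGG was present in 14 of these 22 (63.6%), among them Stx1a, Cplx1, Rab3a, Rims1, Unc13a and Pclo, and in 33.0% of the 27025 windows of all genes, which include pseudogenes and noncoding RNAs. TGACG was in 5 of 22 (22.7%) against 17.8%, and TATAAA in 2 of 22 (9.09%) against 13.0%. The full CREB site TGACGTCA was in 0 of 22 and in 1.6% of all windows. These matches describe the letters only.

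Values are log2 intensities after quantile normalization, and every difference is HD_miR196a minus HD. Tests are limma's moderated test on all 26423 probes, with Benjamini-Hochberg adjustment over all of them and a threshold of 0.05. An intensity of one probe cannot be ranked against that of another, so levels are compared between mice within a gene. Deposited medians were 160.0 to 166.3 for the HD_miR196a group and 184.3 and 185.6 for the HD group, a shift that normalization removes. As a guide to background, probes of olfactory receptor genes, mostly silent in brain, had a 95th percentile of 8.27. The means of 5 members (Stx1a, Cplx3, Sv2c, Rims1 and Bsn) lay below it, as did those of 60.0% of all probes. Cplx3 lay above it in HD_miR196a mice 2 and 3 and in HD mouse 2. The medium spiny neuron markers Penk, Drd1, Rgs9 and Ppp1r1b, which define striatal projection neurons, lay above that percentile in every mouse, while Drd2 was read near the floor throughout. Replicates are separate mice, 3 against 2, and an exact permutation test of that design cannot give a p below 0.1.

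No release gene passed the test between the groups. Of the 25 members 0 passed the threshold, as did 0.0% of all probes, and 0 members had an unadjusted p under 0.05, against 4.16% of all probes. The members were higher in HD_miR196a mice for 15 genes (60.0%, against 49.3% of all probes) and lower for 10. Their median difference was 0.06, beside -0.00 over all named genes, and single differences ran from -0.28 for Stx1a to 0.34 for Unc13c. The groups did not overlap for 4 members (16.0%), against 20.3% of all probes: 2 higher in HD_miR196a mice (9.96% of all probes) and 2 lower (10.3%). For 23 of the 25, all but Stx1a and Cplx1, the spread among mice of 1 group was wider than the difference between the groups. The 95% interval of the difference lay within 0.5 on either side of 0 for 11 members, and for the rest it reached past 0.5 in at least 1 direction, so that a difference of that size is not excluded for them.

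**Figure D1:**
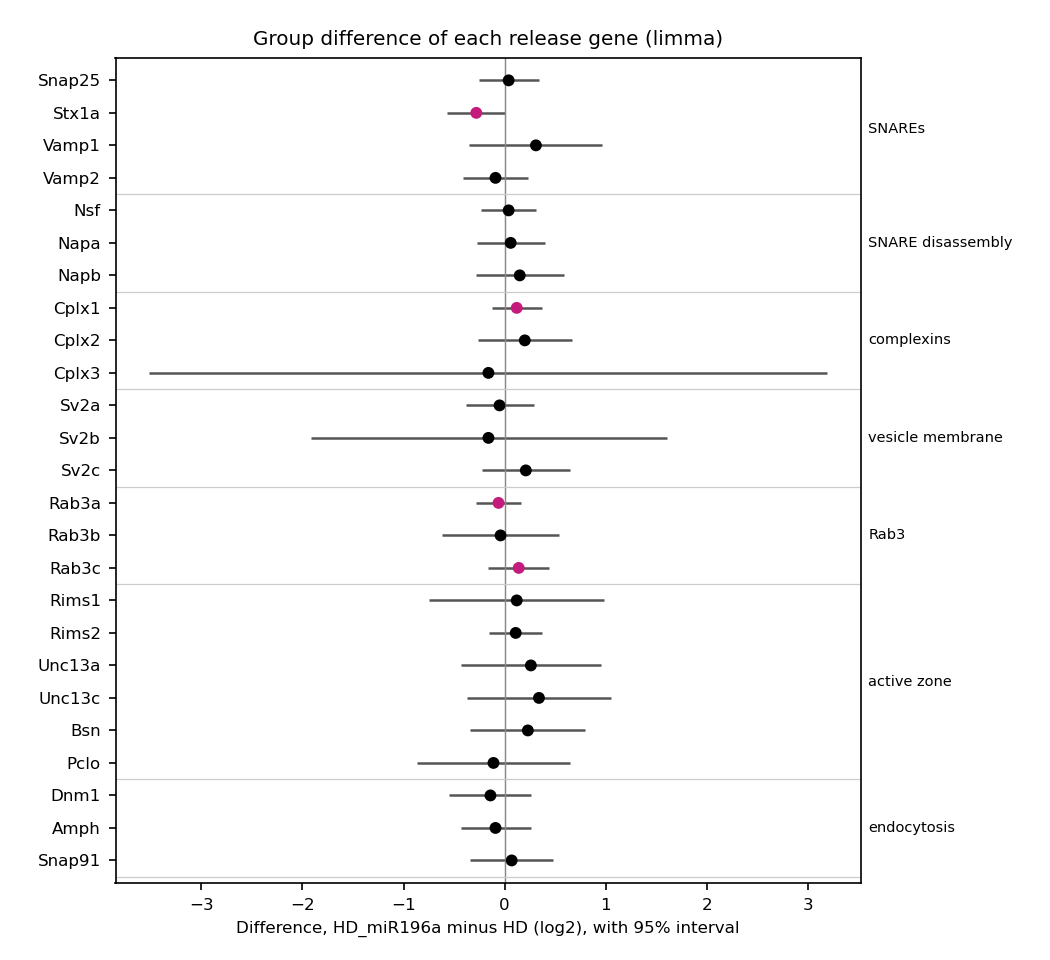
Difference between the groups (HD_miR196a minus HD, log2, horizontal axis) for each of the 25 release genes, ordered by role. Points are limma estimates, lines their 95% intervals, and the coloured points mark the 4 genes whose groups did not overlap; every interval includes 0, and those of Cplx3 (-3.51 to 3.19) and Sv2b (-1.91 to 1.60) are the widest.

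Among the SNAREs, the syntaxin gene Stx1a, which encodes a plasma membrane SNARE of neurons, came nearest to a difference. In mice 1 to 3 of the HD_miR196a group it measured 7.95, 7.81 and 8.04, and in mice 1 and 2 of the HD group 8.23 and 8.20. All later values follow this order. All HD_miR196a mice lay below both HD mice, by -0.28 ± 0.11 (SE) with a 95% interval from -0.57 to 0.003 (unadjusted p = 0.0515, limma adjusted p = 0.979). Over the other settings its adjusted p ran from 0.362 to 1.0. All 5 values lie under the 8.27 that marks the top of olfactory receptor signal, so this is a difference at low signal.

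Snap25, the plasma membrane SNARE that contributes a pair of helices to the fusion complex, was at 15.56, 15.63 and 15.80 in HD_miR196a mice and 15.63 and 15.61 in HD mice. The HD mice fell inside the range of the HD_miR196a mice, and the interval of the difference, -0.25 to 0.34, is among the narrower ones. Vamp2, the main vesicle SNARE of forebrain synapses, was at 13.07, 13.28 and 13.19 against 13.16 and 13.38, with overlapping groups. Its relative Vamp1, more prominent in hindbrain and in fast-firing neurons, was at 11.05, 10.54 and 10.77 against 10.79 and 10.17. Vamp1 was highest in the mice numbered 1 of both groups, where Vamp2 was lowest.

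Nsf, the ATPase that disassembles spent SNARE complexes, was nearly level over the mice at 13.24, 13.40 and 13.33 against 13.23 and 13.35. Its adaptor Napa, the alpha-SNAP gene, measured 9.19, 9.32 and 9.09 against 9.02 and 9.26. The brain form Napb, the beta-SNAP gene, measured 13.47, 13.72 and 13.53 against 13.21 and 13.63. The groups overlapped for these 3 genes, whose differences were 0.04 ± 0.10, 0.06 ± 0.13 and 0.15 ± 0.17 (SE).

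Complexins clamp and promote fusion by binding the assembled SNARE complex, and loss of complexin 2 protein has been described in HD brain. Cplx1 was at 14.24, 14.132 and 14.23 in HD_miR196a mice and 14.126 and 14.04 in HD mice. The groups of Cplx1 did not overlap, but the nearest mice differed only in the third decimal, and the difference was 0.12 ± 0.10 (SE, limma adjusted p = 0.979). Cplx2 was at 13.41, 13.65 and 13.73 against 13.19 and 13.60, a difference of 0.20 with a 95% interval from -0.27 to 0.67.

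Cplx3, a complexin found at ribbon synapses and in a small set of cortical neurons, varied more between mice of 1 group than between the group means. Its bright probe read 6.01, 9.22 and 8.74 in HD_miR196a mice and 6.86 and 9.44 in HD mice. The mice numbered 1 of both groups were low, at the level of olfactory receptor probes, and the other 3 were higher. The group means differed by -0.16 ± 1.28 (SE). A second, dimmer Cplx3 probe did not show this: it read 7.69, 7.51 and 7.46 against 7.53 and 7.36.

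Of the vesicle membrane proteins, the SV2 family are transporter-like glycoproteins that support release and bind synaptotagmin. Sv2b, the form typical of glutamatergic neurons, was at 12.25, 14.05 and 13.62 in HD_miR196a mice and 12.84 and 14.08 in HD mice. The mice numbered 1 were again the lowest in their groups, with a 3.57-fold range over the 5 mice and a group difference of -0.16 ± 0.67 (SE). Sv2a, the broadly expressed form and target of the antiepileptic drug levetiracetam, stayed within 1.22-fold, at 13.81, 13.56 and 13.70 against 13.84 and 13.64. Sv2c, a form enriched in basal ganglia, was at 6.93, 6.88 and 6.73 against 6.85 and 6.41, within olfactory receptor signal in every mouse.

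Rab3 GTPases tether vesicles to the active zone through the RIM scaffolds. Rab3a, the main neuronal form, had the smallest spread of all members, 1.07-fold over the mice. It read 14.18, 14.23 and 14.24 in HD_miR196a mice and 14.27 and 14.28 in HD mice, and the groups did not overlap, at a difference of -0.06 ± 0.09 (SE). Rab3b was at 8.35, 8.10 and 8.62 against 8.62 and 8.17. Rab3c was at 12.39, 12.36 and 12.59 against 12.26 and 12.35, just without overlap, at 0.14 ± 0.12 (SE), and its dimmer probe, at 9.94 to 10.36 against 10.08 and 9.71, overlapped. These differences did not pass (limma adjusted p = 0.982 for Rab3a, 0.998 for Rab3b and 0.979 for Rab3c).

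Of 6 active zone genes, 5 had a higher mean in HD_miR196a mice; the median difference was 0.17, and the groups overlapped for each. Rims1, which links Rab3 and calcium channels, was at 7.30, 7.99 and 7.86 against 7.20 and 8.00. Rims2 was much steadier, at 10.40, 10.49 and 10.35 against 10.36 and 10.25. Unc13a, the vesicle priming factor of most forebrain synapses, was at 12.02, 12.59 and 12.27 in HD_miR196a mice and 11.72 and 12.35 in HD mice. Rims1 and Unc13a were lowest in the mice numbered 1 of both groups.

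Unc13c, a relative best known from cerebellum, was at 10.97, 10.21 and 10.69 against 10.49 and 10.07. Mouse 1 was the highest within each group, but HD mouse 1 lay below HD_miR196a mouse 3. Its difference of 0.34 ± 0.27 (SE) was the largest among the members and did not pass (limma adjusted p = 0.979). The giant scaffold Bassoon, Bsn, was near background at 6.59, 5.99 and 6.41 against 6.24 and 5.97. Piccolo, Pclo, was at 11.78, 12.41 and 12.22 against 11.90 and 12.59 on its brightest probe, lowest in the mice numbered 1. On the second Pclo probe the order was turned, with the mice numbered 1 highest (10.36, 9.88 and 10.02 against 10.32 and 9.98), and the third stayed between 9.02 and 9.42. The order of the mice differed between probes for each of the 5 members with more than 1 probe. The dimmer Unc13a probe read 7.71, 7.90 and 7.65 against 7.64 and 8.00, a difference of -0.07 where the bright probe gave 0.26. The sources used here do not say which transcript each probe reads.

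**Figure D2:**
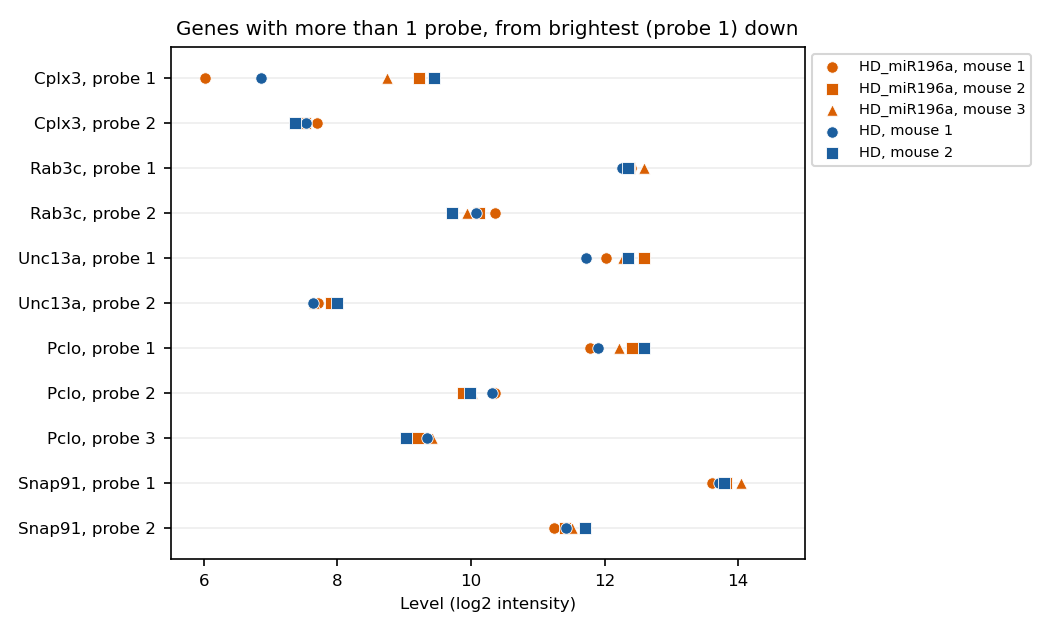
Log2 intensity (horizontal axis) in each mouse for the 11 probes of the 5 members with more than 1 probe, the brightest first; orange marks HD_miR196a, blue HD, and the shape gives the mouse number. The bright Cplx3 probe spreads from 6.01 to 9.44, while the dimmer one stays between 7.36 and 7.69.

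Endocytic members recover vesicle membrane after fusion. Dnm1, the neuronal dynamin that cuts vesicles from the membrane, was at 13.00, 13.09 and 12.90 against 12.94 and 13.34. Amphiphysin, Amph, which recruits dynamin, was at 12.30, 12.58 and 12.55 against 12.49 and 12.64. Snap91, the clathrin adaptor AP180, was at 13.61, 13.82 and 14.05 against 13.72 and 13.79. The groups overlapped for all 3, with differences of -0.14, -0.09 and 0.07, and a second Snap91 probe differed by -0.18 ± 0.15 (SE), the opposite sign.

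**Figure D3:**
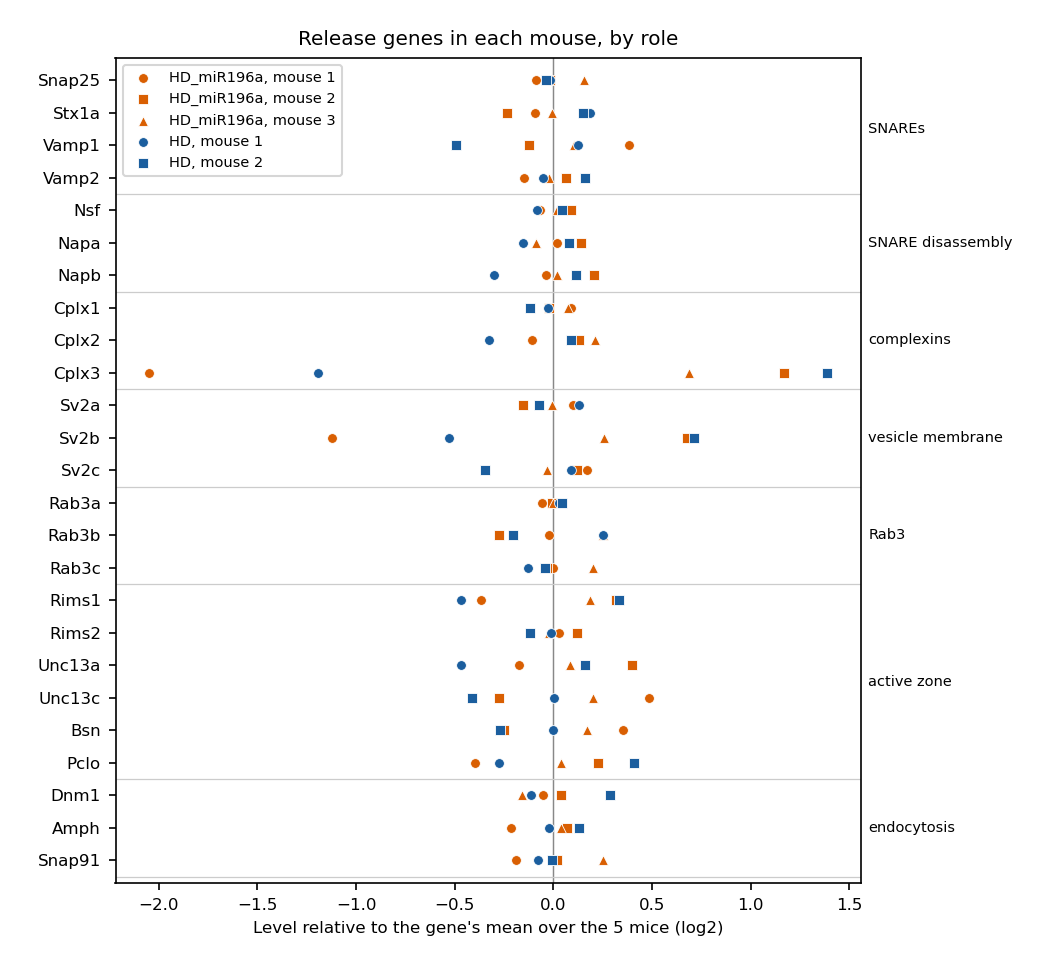
Level of each of the 25 release genes in each mouse relative to the gene's mean over the 5 mice (log2, horizontal axis), by role; orange marks HD_miR196a, blue HD, and the shape gives the mouse number. Most genes stay within 0.5 of their mean in every mouse, and Cplx3 and Sv2b spread most, with the mice numbered 1 (circles) lowest.

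The contrast between mice was larger than that between groups. For 11 of the 25 members (44.0%), both mice numbered 1 were lower than all the other mice: Vamp2, Nsf, Napb, Cplx2, Cplx3, Sv2b, Rims1, Unc13a, Pclo, Amph and Snap91. The share was 13.7% of all probes and 16.2% of the 8748 named genes above the olfactory receptor percentile. This count was made after the values were seen, and the difference between these mice was known from earlier results of these data. Of these 11, 4 have further probes (Cplx3, Unc13a, Pclo and Snap91), and 0 of those 5 further probes had both mice numbered 1 lowest. Vamp1 and Sv2a were the 2 members highest in both. Over all members the summed intensity on the linear normalized scale was 191858 and 193397 in the mice numbered 1 of HD_miR196a and HD. It was 216455 and 220105 for the remaining HD_miR196a mice and 216283 for the second HD mouse. Bright probes weigh most in this sum, that of Snap25 (mean 15.65) above all. A large part of the contrast between mice comes from Sv2b, which ranged 3.57-fold. The 3 vesicle membrane genes, Sv2b among them, summed to 19341 and 22111 in the mice numbered 1. They summed to 29086 and 26046 in the remaining HD_miR196a mice and 30138 in the second HD mouse. The median deviation of the members from their own means was small, at -0.06 and -0.05 (log2) in the mice numbered 1. It was 0.06 and 0.08 in the remaining HD_miR196a mice and 0.04 in the second HD mouse.

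Markers of cortical projection neurons, the glutamatergic cells of the overlying cortex, moved with this contrast. For 11 of 13 named markers both mice numbered 1 were the lowest. Slc17a7, the vesicular glutamate transporter of cortical neurons, read 8.47, 11.76 and 11.05 in HD_miR196a mice and 8.82 and 11.87 in HD mice. The neuropeptide gene Cck read 11.05, 13.64 and 13.01 against 11.18 and 13.97. The summed intensity of the 13 markers was 15507 to 50262 in HD_miR196a mice and 15078 and 56279 in HD mice. No marker was at the floor, but the means of 2 of the 13 lay below the olfactory receptor percentile of 8.27. In the mice numbered 1 of HD_miR196a and HD, other markers were also below it, such as Neurod6 (5.83 and 7.21) and Emx1 (7.47 and 7.63). For Slc17a7 the mice rose from HD_miR196a mouse 1 and HD mouse 1 through HD_miR196a mice 3 and 2 to HD mouse 2. Sv2b, Vamp2, Amph and the brightest probes of Cplx3 and Pclo stood in the same order. The range over the mice was 1.83 (log2) for Sv2b but 0.31 for Vamp2 and 0.34 for Amph. The dimmer Cplx3 probe did not follow this order. In a bulk sample, fewer cells of a type and less RNA per cell cannot be told apart, and the part of cortical tissue in these values was not tested.

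**Figure D4:**
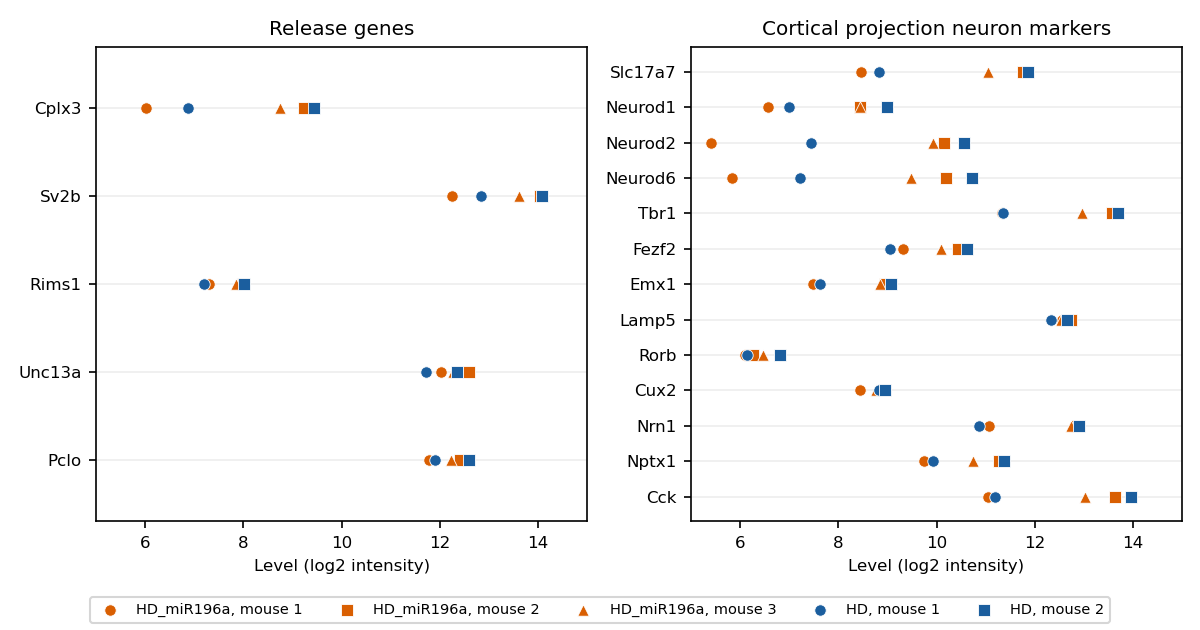
Log2 intensity (horizontal axes) in each mouse for 5 release genes (left) and the 13 named markers of cortical projection neurons (right); orange marks HD_miR196a, blue HD, and the shape gives the mouse number. The circles, the mice numbered 1, sit lowest for Cplx3 and Sv2b and for markers such as Slc17a7 (8.47 and 8.82 against 11.05 to 11.87), in both groups. The 5 release genes were picked from the 11 members lowest in both mice numbered 1. Members without that pattern, Vamp1 and Sv2a among them, are not drawn.

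Thalamic and pallidal markers were mixed: of 7, both mice numbered 1 were highest for 4 and lowest for 1, Lhx2. Their summed intensity was 21857 and 21035 in the mice numbered 1 of HD_miR196a and HD. It was 14309 and 17850 for the remaining HD_miR196a mice and 14763 for the second HD mouse. Zic1, the brightest of the 7 (mean 13.43), weighs most in this sum. The thalamic glutamate transporter Slc17a6 read 11.58, 9.70 and 10.96 in HD_miR196a mice and 11.13 and 9.79 in HD mice. No medium spiny neuron marker passed the test between the groups. Of 12 named, 11 had a higher mean in HD_miR196a mice (49.3% of all probes did). The summed intensity of the 12 was 82727 to 92611 against 66473 and 74312. Groups did not overlap for 6 of the 12, against 20.3% of all probes. An unadjusted limma p under 0.05 was found for 5 of the 12, against 4.16% of all probes. Of 9 oligodendrocyte markers, 8 had a higher mean in HD_miR196a mice and 3 had groups without overlap, with a median difference of 0.28 and none called. The part of these cell types in the release gene values was not tested.

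Leaving out both mice numbered 1 kept 2 HD_miR196a mice and 1 HD mouse. The median difference over the members was then 0.02, with 13 genes higher and 12 lower. Its spread comes from the 2 HD_miR196a mice alone, so whether a gene was called there is not informative. Sv2b differed by -0.24 and Cplx3 by -0.46 in that fit. With only HD mouse 1 left out, they differed by -0.78 and -1.44, and with only HD mouse 2 left out by 0.47 and 1.12. Without HD_miR196a mouse 1 they differed by 0.37 and 0.83. The sign of both thus turned with the mouse left out.

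Other genes of the vesicle cycle were read from 3 lists of 86 genes, of which 71 were named. Of these 0 passed and 0 had an unadjusted p under 0.05, with 27 higher and 44 lower (49.3% of all probes were higher) and a median difference of -0.03. The groups did not overlap for 9 (12.7%, against 20.3%). Both mice numbered 1 were lowest for 21 of 71 (29.6%).

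Among 38 partners of docking and fusion, the SNARE gene Snap23 read 9.19, 9.20 and 9.50 in HD_miR196a mice and 8.95 and 8.96 in HD mice, a difference of 0.34 ± 0.13 (SE, limma adjusted p = 0.979). Doc2b, a calcium-binding protein of spontaneous release, read 10.16, 9.96 and 9.99 against 9.85 and 9.66. The scaffold genes Cask and Apba1 differed by -0.15 ± 0.11 and -0.14 ± 0.11 (SE). Snap23, Doc2b and Cask had groups that did not overlap, and none passed.

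Among 21 further endocytic genes the clathrin light chain gene Clta read 12.19, 12.27 and 12.26 against 12.39 and 12.64, and the adaptor subunit gene Ap2a1 differed by -0.30 ± 0.17 (SE). In the other direction the clathrin adaptor gene Picalm differed by 0.18 ± 0.09 and the ubiquitous dynamin gene Dnm2 by 0.20 ± 0.16. Among 12 genes of vesicle filling, the vesicular monoamine transporter gene Slc18a2 differed by -0.60 ± 0.24 (SE) near background, without overlap, and the proton pump subunit gene Atp6v1g2 differed by -0.15 ± 0.12. Slc32a1, which loads GABA into vesicles and is the transporter of striatal projection neurons, read 14.31, 14.02 and 14.40 against 14.32 and 14.02, a difference of 0.08 ± 0.17 with overlapping groups, and Slc17a6 differed by 0.29 ± 0.70. None of these passed (limma adjusted p = 0.979 to 0.993).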

How the data were processed

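Total RNA of each mouse was amplified, labelled with Cy5 and read on an array with that single dye, per the labels' protocols. The deposited file gives a linear intensity for each probe in each mouse, in which the authors had combined 2 technical repeats. A few values are negative, as background subtraction gives. The labels used here do not state the scanner, the software or any scaling. Intensities were quantile-normalized, floored at 1 and put on the log2 scale, and tested with limma 3.58.1 in R 4.3.3 (lmFit, eBayes, 3 residual and 1.75 prior degrees of freedom). The number of arrays limits the precision.

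Groups came from the sample titles and genotype labels. Probes were named through a platform table: 20377 had 1 symbol, none had several, and 6046 were unnamed there. That table holds no symbol with the letter Y. No member, no companion gene and 2 marker genes were matched through a synonym.

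Every member is reported. Values by mouse were to be given for a fixed set, for the smallest p in each role and for members near the floor, and are given for all 25. Of the companion lists, the 2 genes of smallest p in each direction are named. Members and lists were chosen with earlier results of these data known.

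On simulated data with 26423 probes, 3 against 2 mice and 200 changed probes per run, limma called 0.1% of probes shifted by 0.5 (log2), 22.2% of those shifted by 1, 80.3% by 2 and 96.1% by 4, with 6.15 false calls per run. In that simulation the variances were shuffled over all probes, and only probes above a minimum mean were changed. A bright probe could thus take the variance of a dim one, so the recovery is not specific to the members. Alternatives were other scalings, floors, filters and variance models, the mouse number as a block, mice left out, and averaging all probes of a gene.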

Additional observations from a re-analysis of the deposited data

How the results depend on the processing

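No member was called in any of the 13 other settings; where a fit keeps 1 HD mouse, only the HD_miR196a mice give the spread, and the lone sample is taken to vary as they do. The median difference over the members, 0.06, became -0.15 without scaling, where the median of all probes was -0.20, and 5 members were higher and 20 lower in place of 15 and 10; relative to all probes it was 0.05 there. With 1 mouse left out at a time it ran from -0.03, without HD mouse 1, to 0.10. The count of called probes on the array, 0, became 2 with a floor equal to the median of olfactory receptor probes and 3 with trend and robust settings, and 0 to 3 with 1 mouse left out; none was a member, and the cause was not tested. Of 323 values of members, 280 kept their sign and 43 changed it, with no call in either fit. Rab3a and Stx1a stayed lower and Unc13c higher in all 13, and Bsn stayed higher in the 12 that held it. Stx1a had an unadjusted limma p under 0.05 in 7 of the 13, which are refits of the same mice and not independent. In those of the 7 that fitted all 26423 probes, 1018 (trend and robust) to 3641 (no scaling) probes had one too. Among probes above the median level 23 members were left.

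The mice share numbers 1 and 2 between groups, and the sources used here do not say whether equal numbers pair them. Deviations from group means correlated at 0.236 for number 1 and 0.17 for number 2. With 2 HD mice, the deviation of HD mouse 2 is that of HD mouse 1 with its sign turned. Both correlations therefore use the same HD deviations and are not separate evidence of pairing. With the replicate block the median difference over members was 0.03, with 0 probes and 0 members called. There 2020 probes had an unadjusted limma p under 0.05 in place of 1099. No HD mouse is numbered 3, so in that fit the difference rests on the mice numbered 1 and 2 alone. Its values nearly repeat those without HD_miR196a mouse 3 (Stx1a -0.33 in both), so the 2 settings are not separate checks. In the simulation with 5 mice a difference of 0.5 was rarely recovered. The means of 5 members lay below the olfactory receptor percentile, as did those of 60.0% of all probes.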
